A study of Mus musculus with 13 samples.

Results

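The SREBP pathway was examined in LPS-stimulated macrophages through 9 genes, which were 9 of the 24562 genes of the deposited count table. They comprise the SREBP transcription factors themselves (*Srebf1*, *Srebf2*), the escort protein *Scap*, the retention proteins *Insig1* and *Insig2*, the proteases *Mbtps1* and *Mbtps2*, and 2 sterol-regulated genes outside sterol synthesis (*Stard4*, *Tmem97*). Each gene was represented by the RefSeq transcript with the highest total count for its symbol, and all 9 passed the filter on low counts, as did 11942 genes in all. RNA-seq had been performed on bone marrow-derived macrophages (BMDMs) of female mice on a C57Bl/6J background. Control mice carried floxed *Acly* alleles (Acly fl/fl, labelled WT) and no Cre. Acly M-KO mice carried the same floxed alleles, in which exon 9 is flanked, and Cre expressed from the myeloid LysM promoter (*Lyz2-Cre*). Both genotypes therefore share the floxed allele, and the Cre also acts in other myeloid cells that express *Lyz2*. The age of the mice is not given in the sources used here. Marrow cells were cultured for 7 days in L929-conditioned medium and then received 100 ng/mL LPS for 3 h or 24 h, and no unstimulated library was analysed here. The groups held 3 libraries each after 1 of the 4 control libraries at 24 h had been left out.

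*Acly* encodes ATP citrate lyase, which splits cytosolic citrate to yield acetyl-CoA, the carbon source of both fatty acids and sterols. SREBPs are made as precursors in the membrane of the endoplasmic reticulum, where Scap senses sterols and binds Insig proteins when sterols are plentiful. When sterols are scarce, Scap carries the precursor to the Golgi, site-1 protease (*Mbtps1*) and site-2 protease (*Mbtps2*) cut it, and the released fragment enters the nucleus and activates genes of lipid synthesis and uptake. Many of these targets, among them *Insig1*, *Stard4* and the *Srebf* genes themselves, are read in macrophages as reporters of SREBP activity, and *Srebf1* is also a target of the liver X receptors (LXRs).

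The libraries in the fit held 21274102 to 59577343 counts. Control 24 h replicate 1 held 34467 counts, so 1 count in it stood for 22.4 CPM (counts scaled to a common library size), and it was left out of every value below except where it is named. *Acly* itself was at 104.56, 106.83 and 106.36 CPM in control and 37.70, 46.18 and 41.54 CPM in Acly M-KO macrophages after 3 h. At 24 h it was at 107.48 to 112.90 CPM in control and 29.05 to 30.52 CPM in Acly M-KO macrophages. The groups did not overlap at either time, with log2 fold changes of -1.34 and -1.88 (adjusted p = 6.41e-16 and 4.81e-20). All adjusted p-values are from edgeR's quasi-likelihood test with Benjamini-Hochberg adjustment over all transcripts tested, and since no label ties the replicates to separate mice or cultures, they measure only the spread between these libraries. Defining macrophage genes were present in every library, with none of 7 markers at 0 in any group. Their summed level was 8290 to 8383 CPM in control and 5698 to 6302 CPM in Acly M-KO macrophages at 3 h, and 6546 to 6850 against 4817 to 4896 CPM at 24 h. *Lyz2*, whose locus carries the Cre, held much of this gap, at 4703 to 4862 against 2109 to 2646 CPM at 3 h. At 24 h it was at 2601 to 2771 against 929 to 1044 CPM. Of the other markers at 3 h, *Adgre1* was higher in Acly M-KO macrophages (749 to 800 against 914 to 949 CPM). *Mertk* (101 to 108 against 82.0 to 90.9) and *Fcgr1* (262 to 284 against 213 to 260) were lower there, and *Cd68*, *Csf1r* and *Itgam* overlapped. At 24 h *Csf1r* (507.4 to 531.2 against 492.3 to 506.8) and *Mertk* (126.9 to 128.3 against 94.9 to 107.5) were lower, and the remaining markers overlapped. Summed neutrophil markers were at 6.12 to 7.90 CPM at 3 h and 2.46 to 3.52 CPM at 24 h over both genotypes, with 1 or 2 of 6 markers at 0 in a group. Summed markers of B and T cells, dendritic cells and fibroblasts stayed at or below 0.609 CPM, with at most 2 markers of a list at 0 in all libraries of a group. The part of these marker differences in the results below was not tested, and in bulk RNA fewer cells of a type and less RNA per cell cannot be told apart.

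The gene models are those of GRCm38, the build called mm10 in the submitters' notes. *Srebf1* (chromosome 11, 60199089 to 60222581, minus strand) overlaps *Mir6921* and *Mir6922* on its own strand and *Rai1* on the other. *Srebf2* (chromosome 15, 82147181 to 82205379, plus strand) holds *Mir33* and *Gm49502*. *Scap* (chromosome 9, 110333288 to 110384950, plus strand) overlaps *5830462I19Rik* and *Insig2* (chromosome 1, 121304353 to 121332589, minus strand) overlaps *Gm37174*, each on the opposite strand. *Mbtps2* (chromosome X, 157535371 to 157598715, minus strand) overlaps *Yy2* on its own strand and *Gm6568* on the other. *Insig1* (chromosome 5, 28071363 to 28078662, plus strand), *Mbtps1* (chromosome 8, 119508156 to 119558735, minus strand), *Stard4* (minus strand) and *Tmem97* (chromosome 11, 78541817 to 78550777, minus strand) overlap no other annotated gene. The strand setting of the authors' counting is not given in the sources used here, so counts of overlapping genes may be shared. *Srebf1* had 2 transcripts with the same total, 13800 counts, so the SREBP-1a and SREBP-1c forms, which begin at different first exons, could not be told apart. The 4 transcripts of *Insig2* had totals of 6807 to 6820 counts, and those of *Scap* 6730 and 6733.

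RefSeq promoters on GRCm38.p6 were found for 8 of the 9 genes. Those of *Srebf2*, *Insig1* and *Tmem97* are shown, since these genes differed between genotypes and stand for a factor, a retention protein and a sterol-regulated target. Each runs from 250 bases before RefSeq's start to the outermost annotated start of the gene and is written on the strand of the gene. Capitals mark matches, on either strand, to the sterol regulatory element (TCACNCCAC, or its first 8 letters TCACNCCA), the E-box that SREBPs can bind (TCACNTGA), the CCAAT box (CCAAT, the letters of the NF-Y site) and the E-box CACGTG. The 8-letter form was added after the promoters had been read. The windows are chr15:82147019-82147180 for *Srebf2*, chr5:28071162-28071362 for *Insig1* and chr11:78550778-78550985, minus strand, for *Tmem97*.
Srebf2: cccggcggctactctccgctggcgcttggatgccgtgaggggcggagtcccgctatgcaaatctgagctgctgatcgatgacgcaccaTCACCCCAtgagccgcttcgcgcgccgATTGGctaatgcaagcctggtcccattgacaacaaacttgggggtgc
Insig1: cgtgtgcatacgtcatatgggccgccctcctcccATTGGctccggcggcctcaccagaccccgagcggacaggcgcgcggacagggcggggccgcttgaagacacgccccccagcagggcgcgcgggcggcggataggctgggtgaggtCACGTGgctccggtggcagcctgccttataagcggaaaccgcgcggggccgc
Tmem97: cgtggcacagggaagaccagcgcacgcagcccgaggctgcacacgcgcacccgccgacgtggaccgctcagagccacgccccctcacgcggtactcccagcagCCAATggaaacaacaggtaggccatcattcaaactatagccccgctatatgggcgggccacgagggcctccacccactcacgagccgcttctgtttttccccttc

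The *Srebf2* promoter held TCACCCCA 162 to 155 bases before RefSeq's start and a CCAAT box on the other strand 135 to 131 bases before it. The *Insig1* promoter held a CCAAT box on the other strand at 216 to 212 bases and CACGTG at 101 to 96 bases, and that of *Tmem97* a CCAAT box at 147 to 143 bases and a second, beyond the window printed, at 40 to 36 bases. The 9-letter element stood in none of the promoters of the 8 genes and in 1.05% of all 32851 promoters searched, and the 8-letter form stood in 3.67% of all. TCACNTGA was in 3.45% of all promoters and among these genes in one start of *Insig2*. CCAAT stood in 33.8% of all promoters and CACGTG in 6.02%. The GC box GGGCGG, found in 32.7%, was searched as well and is not marked. All shares are of windows of 250 bases before the start. A match of letters is a description of these windows and not a binding site, and no binding was measured here.

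*Srebf1*, *Srebf2*, *Insig1*, *Stard4* and *Tmem97* were higher in Acly M-KO than in control macrophages after 3 h LPS and lower after 24 h. *Scap*, *Mbtps1* and *Mbtps2* passed the test between genotypes at neither time. At 3 h, 2 of 9 were changed (adjusted p under 0.05 and a log2 fold change beyond 0.75 either way), against 2.01% of all genes tested. These were *Insig1* (log2 fold change 0.78) and *Stard4* (0.80). By the adjusted p alone 5 of 9 differed, all higher in Acly M-KO macrophages, against 15.4% of all genes, or 8.52% counted as higher only. At 24 h, 1 of 9 was changed, *Stard4* (-0.78), against 1.38% of all genes, and 6 of 9 differed by the adjusted p alone, against 13.9%. Of these 6, 5 were lower in Acly M-KO macrophages, a direction found for 5.59% of all genes, and *Insig2* was higher. The libraries of the genotypes did not overlap for 6 of 9 genes at 3 h (30.1% of all genes) and for 6 of 9 at 24 h (33% of all genes). The median log2 fold change of the 9 genes was 0.36 at 3 h and -0.32 at 24 h, and over all genes tested it lay within 0.01 of 0 at both times. The genotype effect differed between the times, as a term of the fit, for 5 of 9 genes, *Srebf1*, *Srebf2*, *Insig1*, *Stard4* and *Tmem97*, all in the negative direction, against 9.59% of all genes in either direction and 4.71% in the negative one. The plot of genotype effects shows both times side by side.

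**Figure D1:**
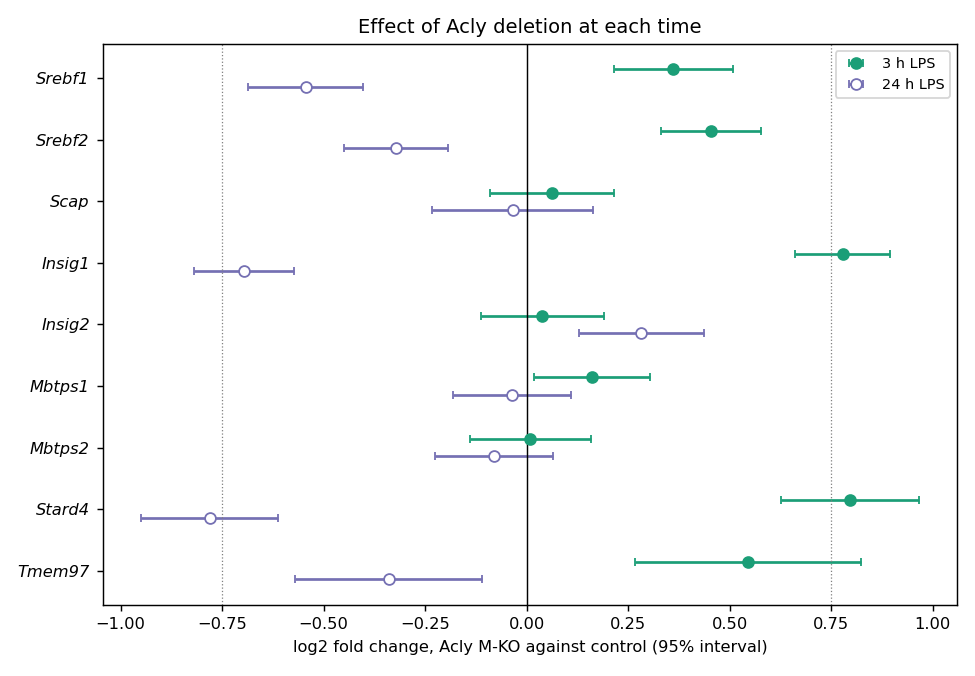
Log2 fold change of each of the 9 genes in Acly M-KO against control BMDMs (x axis) after 3 h (filled) and 24 h LPS (open), with 95% intervals from the fit of 12 libraries and dotted lines at 0.75 either way. *Srebf1*, *Srebf2*, *Insig1*, *Stard4* and *Tmem97* lie to the right of 0 at 3 h and to the left at 24 h, and *Scap*, *Mbtps1* and *Mbtps2* lie near 0.

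*Srebf1*, which encodes the SREBP-1 proteins best known for fatty acid synthesis, was at 36.09, 38.56 and 35.60 CPM in control and 49.08, 45.13 and 47.55 CPM in Acly M-KO macrophages after 3 h. At 24 h its level was 57.23, 51.63 and 48.42 CPM in control and 33.64, 39.41 and 34.50 CPM in Acly M-KO macrophages. The 3 Acly M-KO libraries lay above all controls at 3 h and below all controls at 24 h. The log2 fold change was 0.36 (SE 0.07, adjusted p = 7.12e-04) at 3 h and -0.54 (SE 0.07, adjusted p = 1.59e-06) at 24 h, and their difference was -0.91 (SE 0.10, adjusted p = 2.15e-07). From 3 h to 24 h *Srebf1* rose in control macrophages by 0.51 on the log2 scale and fell by 0.40 in Acly M-KO macrophages (adjusted p = 1.52e-07 and 9.20e-06).

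*Srebf2*, which encodes SREBP-2, the factor best known for cholesterol synthesis and uptake, was at 139.51, 140.61 and 137.72 CPM in control and 191.44, 185.03 and 196.12 CPM in Acly M-KO macrophages after 3 h. At 24 h the values were 76.86, 72.56 and 67.25 CPM in control and 55.98, 64.46 and 52.50 CPM in Acly M-KO macrophages. The genotypes did not overlap at either time, and every library at 24 h lay below every library at 3 h. The log2 fold change between genotypes was 0.45 (SE 0.06, adjusted p = 3.23e-06) at 3 h and -0.32 (SE 0.06, adjusted p = 5.08e-04) at 24 h, with a difference of -0.78 (SE 0.09, adjusted p = 3.10e-07). From 3 h to 24 h *Srebf2* fell by 0.95 on the log2 scale in control and fell by 1.73 in Acly M-KO macrophages (adjusted p = 1.07e-14 and 6.10e-21). Unlike *Srebf1*, it thus fell with time in both genotypes.

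**Figure D2:**
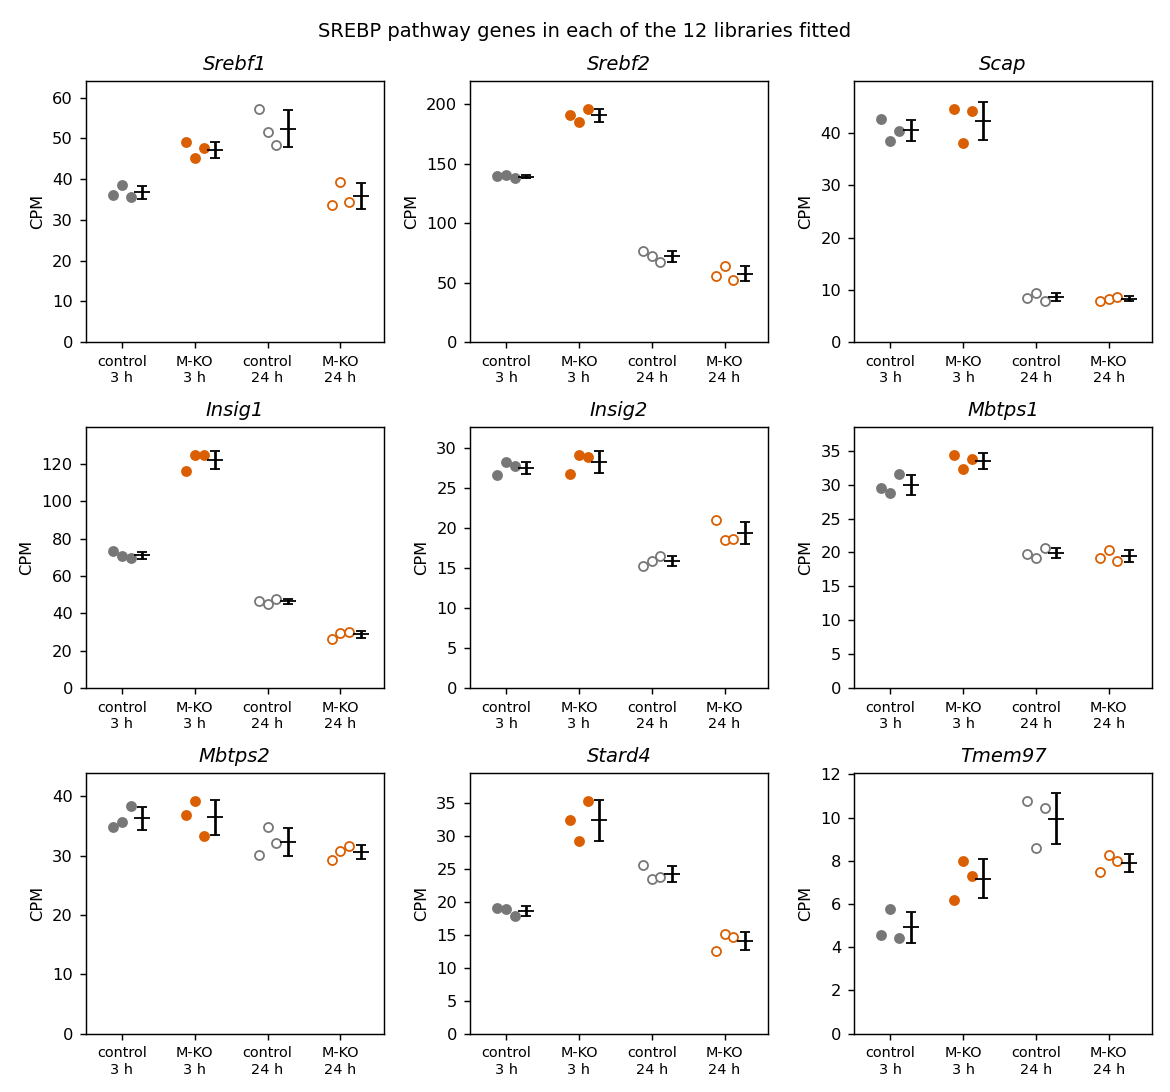
Level of each of the 9 genes in CPM, counts scaled to library size (y axis), in the 12 libraries fitted, by genotype and hours of LPS. Points are libraries (grey control, orange Acly M-KO, filled 3 h, open 24 h) and the cross and bar beside them are the mean and SD of 3 libraries, and *Srebf1* and *Stard4* show opposite courses from 3 h to 24 h in the 2 genotypes.

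The escort gene *Scap* showed no difference between genotypes that passed the test, but the steepest fall with time of the 9. It was at 42.60, 38.46 and 40.34 CPM in control and 44.57, 38.13 and 44.19 CPM in Acly M-KO macrophages after 3 h. After 24 h LPS it was at 8.36, 9.46 and 7.89 CPM in control and 7.77, 8.28 and 8.71 CPM in Acly M-KO macrophages. The genotypes overlapped at both times, with log2 fold changes of 0.06 (95% interval -0.09 to 0.22, adjusted p = 0.639) and -0.03 (95% interval -0.23 to 0.16, adjusted p = 0.860). The sign of the value at 24 h turned without control 24 h replicate 3 (0.03) or without Acly M-KO 24 h replicate 1 (0.01). From 3 h to 24 h *Scap* fell by 2.26 on the log2 scale in control and fell by 2.36 in Acly M-KO macrophages (adjusted p = 6.82e-21 and 4.90e-21), which left 204 to 517 counts per library at 24 h.

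Of the retention proteins, *Insig1*, itself a target of SREBP, had the largest fold between genotypes in the machinery. It was at 73.28, 70.47 and 69.76 CPM in control and 116.34, 124.90 and 124.72 CPM in Acly M-KO macrophages after 3 h. Levels at 24 h were 46.77, 44.76 and 47.64 CPM in control and 26.47, 29.44 and 30.17 CPM in Acly M-KO macrophages. Its order by group thus ran from Acly M-KO at 3 h, the highest, through both controls to Acly M-KO at 24 h, the lowest, with no overlap between any groups. The log2 fold change was 0.78 (SE 0.06, adjusted p = 4.92e-11) at 3 h and -0.70 (SE 0.06, adjusted p = 1.69e-09) at 24 h. The difference between the times, -1.47 (SE 0.08, adjusted p = 1.43e-13), ranked 2 among all genes tested, each by its 1 transcript, by its p-value. With time *Insig1* fell by 0.61 on the log2 scale in control and fell by 2.09 in Acly M-KO macrophages (adjusted p = 6.08e-11 and 9.76e-24).

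*Insig2*, the paralogue that retains Scap in the same way but is not a classic SREBP target, was at 26.66, 28.22 and 27.72 CPM in control and 26.74, 29.17 and 28.90 CPM in Acly M-KO macrophages after 3 h. At 24 h its libraries were at 15.21, 15.86 and 16.57 CPM in control and 21.02, 18.50 and 18.65 CPM in Acly M-KO macrophages. The genotypes overlapped at 3 h (log2 fold change 0.04, 95% interval -0.11 to 0.19, adjusted p = 0.784) and did not at 24 h, where *Insig2* was the gene of the 9 that was higher in Acly M-KO macrophages (0.28, SE 0.08, adjusted p = 0.0102). That call was lost without control 24 h replicate 2 (0.25, adjusted p = 0.0525) or without Acly M-KO 24 h replicate 1 (0.22, adjusted p = 0.0982). The difference of the genotype effect between the times was 0.24 (SE 0.11) and did not pass the test (adjusted p = 0.153). *Insig2* fell with time by 0.79 on the log2 scale in control and fell by 0.54 in Acly M-KO macrophages.

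The balance of the Insig transcripts is given per transcript length, which is 2697 nt for both. Length was that of the longest GENCODE transcript matched to any RefSeq transcript of the symbol. The ratio of *Insig1* to *Insig2* was 2.749, 2.498 and 2.516 in control and 4.35, 4.28 and 4.32 in Acly M-KO macrophages after 3 h. It was 3.08, 2.82 and 2.88 in control and 1.26, 1.59 and 1.62 in Acly M-KO macrophages after 24 h. The Acly M-KO libraries held the highest ratios at 3 h and the lowest at 24 h, and the 2 control groups did not overlap each other either. The ratio of *Srebf2* to *Srebf1*, also per length, moved mainly with time, from 3.21 ± 0.108 in control and 3.42 ± 0.104 in Acly M-KO macrophages at 3 h to 1.17 ± 0.0273 and 1.36 ± 0.0638 at 24 h (mean ± SD, n = 3). At both times the *Srebf* ratio was also higher in Acly M-KO macrophages, without overlap. It was 3.30 to 3.49 against 3.09 to 3.28 in control at 3 h, and 1.29 to 1.41 against 1.14 to 1.19 at 24 h. No test was made of these ratios.

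**Figure D3:**
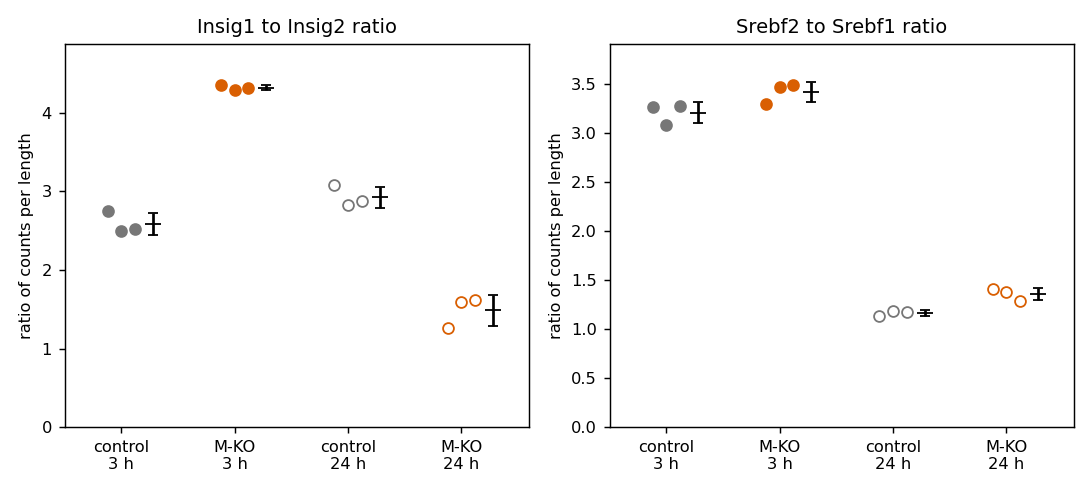
Ratio of counts per transcript length (y axis) of *Insig1* to *Insig2* (left) and of *Srebf2* to *Srebf1* (right) in the 12 libraries fitted, by genotype and hours of LPS, with the mean and SD of 3 libraries beside the points. The Insig ratio is highest in Acly M-KO BMDMs at 3 h (4.28 to 4.35) and lowest in Acly M-KO BMDMs at 24 h (1.26 to 1.62), and the *Srebf* ratio is lower at 24 h in both genotypes.

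Neither protease gene passed the test between genotypes. *Mbtps1*, which encodes site-1 protease, was at 28.78 to 31.66 CPM in control and 32.27 to 34.42 CPM in Acly M-KO macrophages after 3 h, groups that did not overlap but whose log2 fold change of 0.16 did not pass the test (95% interval 0.02 to 0.30, adjusted p = 0.125). At 24 h it was at 19.14 to 20.69 and 18.77 to 20.43 CPM (log2 fold change -0.04, 95% interval -0.18 to 0.11, adjusted p = 0.794). *Mbtps1* fell with time by 0.59 on the log2 scale in control and fell by 0.78 in Acly M-KO macrophages (adjusted p = 9.51e-09 and 2.41e-11). *Mbtps2*, which encodes site-2 protease, lay between 33.37 and 39.27 CPM in the 6 libraries at 3 h and between 29.32 and 34.79 CPM in the 6 at 24 h, and the genotypes overlapped at both times. Its log2 fold change between genotypes was 0.01 at 3 h (95% interval -0.14 to 0.16, adjusted p = 0.957) and -0.08 at 24 h (95% interval -0.22 to 0.06, adjusted p = 0.511). The value at 3 h was below 0 without control 3 h replicate 1 (-0.01), control 3 h replicate 2 or Acly M-KO 3 h replicate 2 (-0.04). *Mbtps2* fell with time by 0.17 in control (adjusted p = 0.0367) and fell by 0.25 on the log2 scale in Acly M-KO macrophages (adjusted p = 0.00219). In control that call was lost without control 3 h replicate 2 or 3 or control 24 h replicate 2 or 4, with adjusted p-values from 0.0676 to 0.207, and under the settings named in the closing section.

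*Stard4*, a soluble carrier that moves sterols between membranes and is induced by SREBP-2, was at 19.06, 19.00 and 17.80 CPM in control and 32.43, 29.30 and 35.39 CPM in Acly M-KO macrophages after 3 h. At 24 h the level was 25.58, 23.45 and 23.73 CPM in control and 12.58, 15.12 and 14.62 CPM in Acly M-KO macrophages. The 4 groups did not overlap, and Acly M-KO macrophages held the highest level at 3 h and the lowest at 24 h. The log2 fold change between genotypes was 0.80 (SE 0.08, adjusted p = 3.98e-08) at 3 h and -0.78 (SE 0.08, adjusted p = 6.45e-08) at 24 h. The size, though not the adjusted p, fell under the threshold of 0.75 without Acly M-KO 3 h replicate 3 (0.73), and at 24 h without control 24 h replicate 2 (-0.74) or without Acly M-KO 24 h replicate 1 (-0.70). The difference between the times was -1.58 (SE 0.12, adjusted p = 4.99e-11), the widest of the 9 genes. *Stard4* rose with time by 0.38 on the log2 scale in control macrophages and fell by 1.20 in Acly M-KO macrophages (adjusted p = 1.35e-04 and 4.77e-14).

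*Tmem97*, which encodes the sigma-2 receptor, a sterol-regulated membrane protein linked to cholesterol trafficking, had the lowest counts, 89 to 684 per library. It was at 4.57, 5.76 and 4.44 CPM in control and 6.199, 8.003 and 7.308 CPM in Acly M-KO macrophages after 3 h. At the later time it was at 10.78, 8.61 and 10.45 CPM in control and 7.47, 8.28 and 7.98 CPM in Acly M-KO macrophages. The groups did not overlap at either time, though at 24 h the lowest control library and the highest Acly M-KO library lay close together. The log2 fold change was 0.54 (SE 0.14, adjusted p = 0.00604) at 3 h and -0.34 (SE 0.11, adjusted p = 0.0413) at 24 h. The call at 24 h was lost with DESeq2 (adjusted p = 0.0636), without control 24 h replicate 2 (-0.29) or 4 (-0.30), and without Acly M-KO 24 h replicate 1 (-0.30), 2 (-0.37) or 3 (-0.35), with adjusted p-values from 0.0671 to 0.177 over these omissions, and under a further setting named in the closing section that moved it most. The difference between the times, -0.88 (SE 0.18, adjusted p = 0.00126), passed the test. *Tmem97* rose with time by 1.02 on the log2 scale in control macrophages (adjusted p = 1.55e-08) and was 0.14 higher at 24 h in Acly M-KO macrophages, which did not pass the test (95% interval -0.12 to 0.39, adjusted p = 0.319).

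The time course within each genotype shares its libraries with the comparisons between genotypes and is given beside them. In control macrophages 4 of 9 genes were changed from 3 h to 24 h, against 40.4% of all genes. *Tmem97* rose, and *Srebf2*, *Scap* and *Insig2* fell. All 9 passed the adjusted p alone and did not overlap between the times, against 74.9% and 77.5% of all genes. In Acly M-KO macrophages 5 of 9 were changed, against 42% of all genes, all of them lower at 24 h, as were 20% of all genes. These were *Srebf2*, *Scap*, *Insig1*, *Mbtps1* and *Stard4*. By the adjusted p alone 8 of 9 differed there, and the same number did not overlap, against 75.7% and 76.8% of all genes. The counts by the adjusted p alone and by overlap were therefore near those of the background, and the median log2 fold change of the 9 genes was -0.59 in control and -0.78 in Acly M-KO macrophages, against 0.04 over all genes in each.

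**Figure D4:**
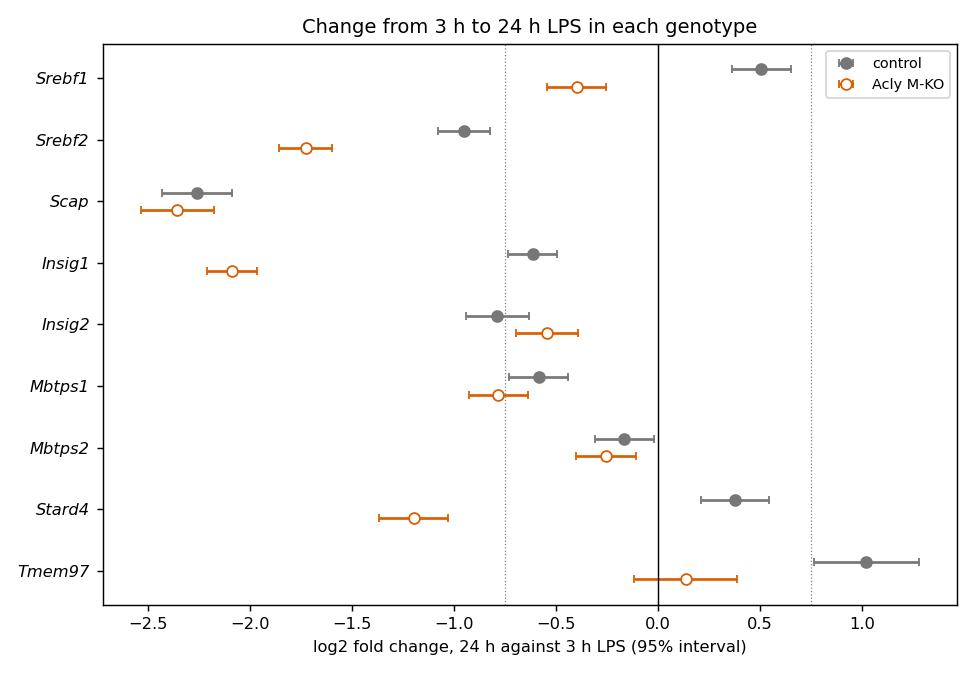
Log2 fold change of each of the 9 genes from 3 h to 24 h LPS (x axis) in control (grey, filled) and Acly M-KO BMDMs (orange, open), with 95% intervals from the fit of 12 libraries and dotted lines at 0.75 either way. *Srebf1* and *Stard4* lie right of 0 in control and left of 0 in Acly M-KO BMDMs, and *Scap* lies below -2 in both.

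Levels were compared between the genes as CPM per kilobase of transcript, with the length chosen as for the ratios, on which the order of genes depends. In control macrophages at 3 h *Srebf2* (27.4 ± 0.287) and *Insig1* (26.4 ± 0.690) stood highest and overlapped, and *Insig2* (10.2 ± 0.295) came next. In Acly M-KO macrophages at 3 h *Insig1* (45.2 ± 1.81) stood above *Srebf2* (37.6 ± 1.10) without overlap. At 24 h *Insig1* led in control (17.2 ± 0.548) ahead of *Srebf2* (14.2 ± 0.948), which overlapped *Srebf1* (12.2 ± 1.04). In Acly M-KO macrophages at 24 h *Srebf2* (11.4 ± 1.21) and *Insig1* (10.6 ± 0.726) overlapped at the top (mean ± SD, n = 3 throughout). *Tmem97* and *Stard4* were the lowest at 3 h in both genotypes, and at 24 h *Scap* was the lowest in both, at 2.03 ± 0.191 and 1.95 ± 0.111.

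The other genes of the pathway were followed as lists. Cholesterol synthesis enzymes, whose genes SREBP-2 activates, were changed upwards in Acly M-KO macrophages at 3 h for 16 of 19, with a median log2 fold change of 1.30, and downwards at 24 h for 4 of 19, with a median of -0.62. *Cyp51*, lanosterol demethylase, had 1.34 and -0.64 at the 2 times. *Hsd17b7*, a sterol ketone reductase, had 1.58 and -0.74. *Mvd*, mevalonate diphosphate decarboxylase, had 1.68 and -0.29, and *Hmgcs1*, the cytosolic HMG-CoA synthase, 0.65 and -0.81, and all 8 of these values passed the adjusted p. The effect of genotype differed between the times for 17 of 19, all negative, against 4.71% of all genes in that direction. By sign alone, 18 of 19 lay above 0 at 3 h and 2 of 19 at 24 h. Fatty acid synthesis genes were changed upwards for 6 of 16 at 3 h and downwards for 5 of 16 at 24 h, with medians of 0.52 and -0.55. By sign alone, 15 of 16 lay above 0 at 3 h and 2 of 16 at 24 h. Over all 11942 genes tested, 168 were changed upwards at 3 h and 58 downwards at 24 h. Fatty acid synthase (*Fasn*) had 1.61 and -1.03, the desaturases *Fads2* 2.34 and -1.24 and *Scd1* 2.25 and -0.83. *Acss2*, which makes acetyl-CoA from acetate, had 1.55 at 3 h, and its 0.01 at 24 h did not pass the test (adjusted p = 0.951). The medians of the 9 genes, 0.36 and -0.32, had the same signs as those of both enzyme lists and were smaller in size.

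Over the 5 lists of genes that act around SREBP, 0 of 42 tested were changed between genotypes at either time by edgeR. Of all genes tested, 2.01% were changed at 3 h and 1.38% at 24 h, so 0 of 42 lies near the background. By the adjusted p alone 5 of 42 differed at 3 h and 8 of 42 at 24 h, shares near those of all genes (15.4% and 13.9%). Of 16 genes of vesicle transport to the Golgi and of retention, none was changed at 3 h or 24 h, none passed the adjusted p at 3 h by edgeR's quasi-likelihood test, and 4 were higher in Acly M-KO macrophages at 24 h, against 8.31% of all genes. These were *Sec24b* (0.22), *Sec24c* (0.22), *Tmem33* (0.26) and *Spring1* (0.36), which encodes a partner of site-1 protease. Of 9 genes of ubiquitin-dependent turnover none was changed. *Syvn1*, an endoplasmic reticulum ubiquitin ligase, was higher at both times (0.23 and 0.39), and *Rnf145*, a ligase linked to Scap, was lower at 24 h (-0.38). Of 7 nuclear partners none was changed, and *Nfya* (-0.20) and *Nfyb* (-0.34), subunits of NF-Y that bind the CCAAT box, were lower at 3 h. Of 8 other substrates of the same proteases none was changed, although *Atf6b* was higher (0.26) and *Creb3l1* lower (-0.58) at 3 h and *Gnptab* lower (-0.20) at 24 h. Among carriers related to *Stard4*, *Stard3* and *Stard5* were tested and neither was changed, with *Stard3* at 0.20 at 24 h by the adjusted p alone. Genes named in these sentences passed the adjusted p and were chosen after their values had been seen, other than *Stard5*, which is named to complete its list.

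Of 6 LXR targets, which respond to oxysterols and desmosterol, none was changed. Over all genes the changed shares were 2.01% at 3 h and 1.38% at 24 h. By the adjusted p alone 4 of 6 were lower in Acly M-KO macrophages at 3 h, against 6.92% of all genes, and 4 of 6 at 24 h, against 5.59%, with medians of -0.25 and -0.33. The same gene was lower at both times in 3 cases, the cholesterol exporters *Abca1* (-0.56 and -0.51) and *Abcg1* (-0.68 and -0.53) and *Smpdl3a* (-0.18 and -0.27). *Mylip*, a ubiquitin ligase of lipoprotein receptors, was lower at 3 h (-0.31), and its 0.13 at 24 h did not pass the test. *Arl4c*, a small GTPase, was higher at 24 h (0.33, adjusted p = 0.0218), and its 0.15 at 3 h did not pass the test. All 6 are named here, after their values had been seen. *Lpcat3*, a phospholipid-remodelling enzyme, was higher at 3 h (0.29) and lower at 24 h (-0.39), the course of *Srebf1*. The plot of pathway genes sets these lists beside the 9 genes.

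**Figure D5:**
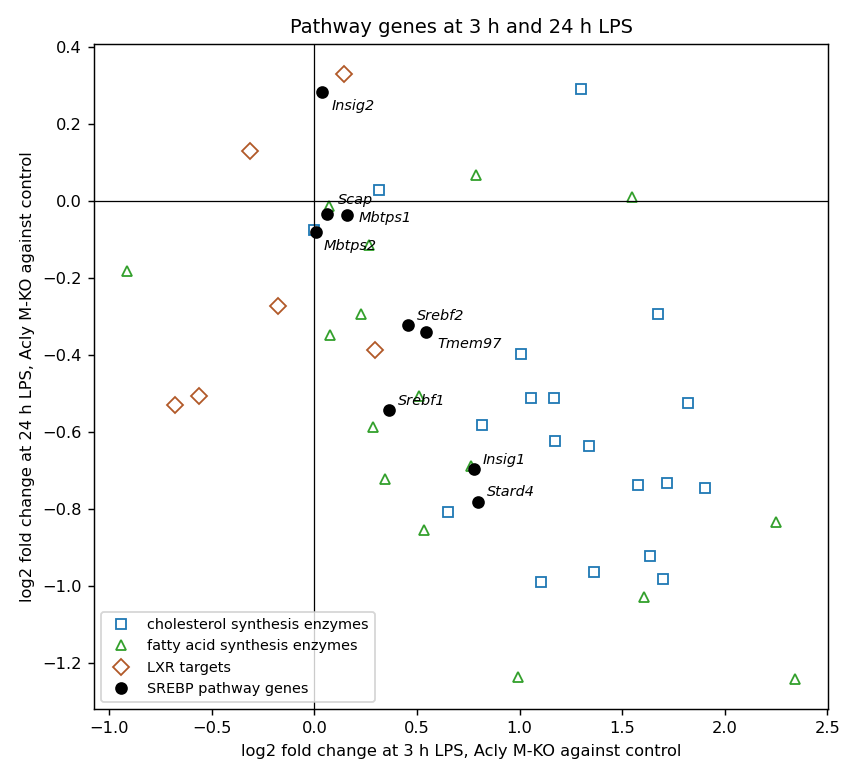
Log2 fold change in Acly M-KO against control BMDMs at 3 h LPS (x axis) and at 24 h LPS (y axis) for the 9 genes (black, named), cholesterol synthesis enzymes (blue squares), fatty acid synthesis genes (green triangles) and LXR targets (brown diamonds). Most enzymes and all of the 9 genes except *Insig2* lie in the lower right, higher at 3 h and lower at 24 h. *Scap*, *Mbtps1* and *Mbtps2* lie there by small values that passed the test between genotypes at neither time. Of the 6 LXR targets, 3 lie in the lower left.

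The genes whose log2 CPM ran most like each of 4 of these genes were found by Pearson's r over the 12 libraries, which share 4 group means, so that r mostly ranks the course over the groups. For *Insig1* these were *Mfsd14a* (0.992), *Hmgcs1* (0.988) and *Tecr* (0.986), and for *Stard4* *Msmo1* (0.960), *Fasn* (0.946) and *Fdps* (0.938). For *Srebf1* they were *Fads1* (0.912), *Rab4b* (0.894) and *Mid1ip1* (0.894), and for *Srebf2* *Rnf187* (0.994), *Ctsd* (0.994) and *Vat1* (0.992). The lists for *Insig1*, *Stard4* and *Srebf1* thus each held at least 1 gene of the enzyme lists above, and that for *Srebf2* held none. After each group's mean had been subtracted the nearest genes were others, *Hsh2d* for *Insig1* (0.957), *Dele1* for *Stard4* (0.924), *Cpt2* for *Srebf1* (0.952) and *Xxylt1* for *Srebf2* (0.926). No test was made of these likenesses.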

How the data were processed

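RNA of BMDMs was sequenced as strand-specific mRNA libraries (KAPA mRNA HyperPrep). The authors aligned reads to mm10 with STAR 2.5.2b, after CASAVA 1.8.2, used SAMtools for filtering and counted tags on each RefSeq transcript with HOMER, and the deposited table holds these counts, whole numbers without normalization, for 35745 transcripts in 13 libraries. Strand and isoform settings of the counting are not given in the sources used here. The number of columns left unused was 0.

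Transcripts were matched to symbols through a RefSeq table and GENCODE (35628 of 35745, with 1.13% of counts in those without a symbol). Samples were grouped by the genotype and time in their labels. Counts of 12 libraries were scaled by TMM, filtered with filterByExpr (19621 transcripts left) and fitted in 1 model of 4 groups with edgeR 4.0.16 (robust quasi-likelihood, limma 3.58.1, R 4.3.3), with Benjamini-Hochberg adjustment. Changed genes had an adjusted p under 0.05 and a log2 fold change beyond 0.75, the study's thresholds, and the difference between times needed the adjusted p alone. CPM were computed on TMM-scaled library sizes, and errors are SD over 3 libraries. Those of the cell type markers were computed on total counts without TMM, so they are on another scale. The coefficient of biological variation was 0.0589. Replicates of a group differed beyond sampling noise (chi-square per degree of freedom 2.66 to 11.9). The fit was also run on simulated data, whose outcome is not given here and is not used as support.

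Named genes were the 9 genes, *Acly*, up to 4 changed genes of each list by adjusted p, and the 3 genes of highest correlation for 4 of the 9. Genes of lists without a changed gene are named outside this rule, after their values had been seen. The 9 genes and the lists were chosen with earlier results of these data known, and some genes are not reported here. Alternatives were all 13 libraries, RLE scaling, no filter, DESeq2 1.42.0, a replicate block, 1 transcript per symbol, other thresholds and the omission of each library.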

Additional observations from a re-analysis of the deposited data

Results flagged for a closer look

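Control 24 h replicate 1, left out of the fit, stood apart from the other 3 control libraries at 24 h in 5 of the 9 genes by Dixon's criterion, which flags about 1 in 20 groups by chance. *Scap*, *Insig2* and *Mbtps2* were at 0 CPM there, from 0 counts each, and *Mbtps1* and *Stard4* were at 67.2 CPM, from 3 counts each. The library held 34467 counts in all.

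The genotype effect of 5 of the 9 genes differed between 24 h and 3 h as a term of the fit. The difference, on the log2 scale and taken as the effect at 24 h minus that at 3 h, was -0.91 for *Srebf1*, -0.78 for *Srebf2*, -1.47 for *Insig1*, -1.58 for *Stard4* and -0.88 for *Tmem97*.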

How the results depend on the processing

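The 45 log2 fold changes of the 9 genes were recomputed under 6 other settings and 12 omissions of 1 library. Of these 810 values, 790 kept their direction and their side of the adjusted p of 0.05, 15 were no longer past it and 5 turned in sign. The values that turned were *Mbtps2* at 3 h (-0.045 to 0.069 without 1 library, against 0.01) and *Scap* at 24 h (-0.111 to 0.031, against -0.03). The 15 were *Tmem97* at 24 h, *Insig2* at 24 h and *Mbtps2* over time in control. *Mbtps2* over time in control had an adjusted p of 0.0990 without the filter on low counts. The numbers of the 9 genes changed were 2 at 3 h and 1 at 24 h, and were the same with all 13 libraries, RLE scaling, no filter, DESeq2 and 1 transcript per symbol. A glmTreat test against 0.75 left 0 at both times, and the adjusted p alone gave 5 at 3 h, 6 at 24 h, 9 over time in control and 8 over time in Acly M-KO macrophages. Without 1 library the number ranged from 1 to 2 at 3 h and from 0 to 1 at 24 h. Over all genes, 240 at 3 h became 35 with glmTreat and 1844 by the adjusted p alone, 165 at 24 h became 4 and 1659, and over time 4825 in control and 5011 in Acly M-KO macrophages became 8949 and 9037. Deviations from the group mean gave r from -0.03 to 0.06 over 15 same-numbered pairs of libraries. Between Acly M-KO libraries at 3 h and 24 h, same-numbered pairs had r of 0.059, 0.039 and 0.041 and all others were below 0. The control libraries did not follow their numbers in this way, and same-numbered pairs had r of -0.007 and 0.016. Their highest r, 0.075, was between replicate 1 at 3 h and replicate 4 at 24 h. Low r over all genes does not exclude a shared origin, so whether the numbers pair samples was not settled. A replicate block left 2 genes changed at 3 h and 1 at 24 h, and lost the adjusted p of *Tmem97* at 24 h (-0.23, adjusted p = 0.285) and of *Mbtps2* over time in control (adjusted p = 0.0657). In this block only control 24 h replicate 4 carried the number 4, so that library had a term of its own and did not inform its group. Both calls were also lost when that library was omitted, so pairing and its loss cannot be told apart here. The cause of these changes was not tested. Depth limits *Tmem97* most, with 89 counts in 1 library.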
